A study of Mus musculus with 13 samples.

Results

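The 40 genes described here encode the machinery of G2 and mitosis. They were taken by symbol from the RNA-seq count table of mouse embryonic stem (ES) cells, and all 40 were found among its 24079 genes. All 40 also passed the filter on low counts, which left 13972 genes for testing. No measured value served as a criterion for the choice of genes, but earlier results of these data were known when it was made. The cells were CGR8, a mouse ES cell line kept on gelatin with LIF and serum, and they were not synchronised. Control cells received 0.5% DMSO for 48 h, and PhenDC3 cells received 10 μM PhenDC3, also in 0.5% DMSO, for the same time. PhenDC3 is a small molecule that binds and stabilises G-quadruplexes (G4), which are folded structures of G-rich DNA or RNA. RNA-seq was available for 3 replicates of each condition, and lists of replication origin peaks (SNS-seq) for 3 control and 2 PhenDC3 replicates. The labels number the RNA-seq replicates but do not say whether they came from separate cultures, so p-values measure the spread between these libraries.

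Entry into mitosis depends on CDK1, which is activated by A and B type cyclins and by the CDC25 phosphatases. In mitosis, kinetochores attach chromosomes to the spindle, and the spindle checkpoint holds back anaphase by inhibiting CDC20, a coactivator of the anaphase-promoting complex (APC/C). Once all chromosomes are attached, the APC/C marks securin and cyclin B for destruction, separase opens cohesin, and the central spindle organises cytokinesis. Most of these genes are transcribed in G2 and M phase. Their promoters are known for CCAAT boxes, bound by NF-Y, and for the cell cycle genes homology region (CHR), bound by MuvB complexes with B-MYB and FOXM1.

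The 6 RNA-seq libraries held between 22232014 and 29486502 counts. Levels are given as CPM, the count of a gene scaled to a fixed library total, after adjustment by relative log expression (RLE). Levels of different genes are compared as RPKM, that is CPM per kb of annotated exon, except where a background set was chosen by CPM. Libraries correlated at 0.978 to 0.992 within a condition and at 0.940 to 0.960 between conditions (log2 CPM, across genes). All 8 ES cell markers were detected in every library, with a summed level of 6398 to 6861 CPM in control and 7497 to 8786 CPM in PhenDC3 cells. The 8 fibroblast markers summed to 5.88 to 6.84 CPM in control and 3.22 to 5.92 CPM in PhenDC3 cells, with Dcn, Fap and Lum at 0 in all libraries. Of the tested markers, 3 of 8 ES cell genes rose (Nanog, Klf4 and Dppa5a) and 2 fell (Pou5f1 and Utf1) in the test given below. In addition, 1 of 3 fibroblast genes fell, and 4 of 9 genes of differentiated cells rose and 1 fell. Over all tested genes, 36.8% changed. The 10 markers of differentiated cells summed to 31.1 to 45.8 CPM in control and 53.0 to 63.6 CPM in PhenDC3 cells, and the part of this difference in the values below was not tested. Rn45s, the precursor of ribosomal RNA, took 2.55% to 5.70% of the counts of control libraries and 0.172% to 1.43% of those of PhenDC3 libraries. This share enters every total count, and its part in the results was not tested beyond the other scalings given below.

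The promoters show what these genes share. RefSeq promoter windows (GRCm38.p6, from 250 bases before to 50 bases after the start) were given for 33 of the 40 genes, and not for Incenp, Cdc25c, Aurkb, Ccna2, Foxm1, Tpx2 and Kif20a. The 150 bases before the start are printed for the 4 genes whose RNA level changed (Cdc20, Cdca8, Cenpf and Cenpe) and for 2 genes that did not pass the test, Ccnb1 and Plk1. They are written 5′ to 3′ on the strand of the gene, with CCAAT (or ATTGG, where the box lies on the other strand) and the CHR letters TTTGAA in capitals. The stretches lie at chr4:118437344-118437493 (Cdc20, minus strand), chr4:124936918-124937067 (Cdca8, minus strand), chr1:189688087-189688236 (Cenpf, minus strand), chr3:135212413-135212562 (Cenpe, plus strand), chr13:100786487-100786636 (Ccnb1, minus strand) and chr7:122159285-122159434 (Plk1, plus strand). The start used for Cenpf lies inside the annotated gene, whose outer end is at 189688107.
Cdc20: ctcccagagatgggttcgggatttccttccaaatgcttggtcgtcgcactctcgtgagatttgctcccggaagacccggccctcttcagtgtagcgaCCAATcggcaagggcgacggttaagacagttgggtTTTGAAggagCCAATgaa
Cdca8: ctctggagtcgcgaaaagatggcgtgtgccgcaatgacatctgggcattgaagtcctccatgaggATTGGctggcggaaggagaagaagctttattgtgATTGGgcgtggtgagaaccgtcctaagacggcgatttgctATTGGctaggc
Cenpf: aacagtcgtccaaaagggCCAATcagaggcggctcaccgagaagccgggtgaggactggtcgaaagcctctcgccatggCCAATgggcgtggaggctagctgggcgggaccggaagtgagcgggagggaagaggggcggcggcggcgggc
Cenpe: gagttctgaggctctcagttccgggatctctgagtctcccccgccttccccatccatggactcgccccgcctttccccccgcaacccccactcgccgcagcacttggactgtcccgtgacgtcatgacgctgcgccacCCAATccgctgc
Ccnb1: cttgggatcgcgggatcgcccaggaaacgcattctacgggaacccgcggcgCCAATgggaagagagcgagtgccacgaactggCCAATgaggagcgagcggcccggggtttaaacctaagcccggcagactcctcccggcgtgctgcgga
Plk1: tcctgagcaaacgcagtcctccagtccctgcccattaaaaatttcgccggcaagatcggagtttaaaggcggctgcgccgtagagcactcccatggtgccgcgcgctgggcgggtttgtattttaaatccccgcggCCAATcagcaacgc

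Positions are counted from the start base as 0. In Cdc20, the CHR letters at -18 to -13 stood between CCAAT boxes at -53 to -49 and -8 to -4. Cdca8 carried ATTGG 3 times in the printed stretch and had its CHR letters after the start, at 13 to 18. Cenpf had CCAAT at -132 to -128 and at -71 to -67, and CHR letters at 2 to 7. Plk1 had its CHR letters at 30 to 35. Neither Cenpe nor Ccnb1 held TTTGAA or TTCGAA in the window, and other forms of the CHR were not searched.

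CHR letters (TTTGAA or TTCGAA, either strand) were found in 26 of the 33 promoters (78.8%) and in 16.1% of the promoters of 11044 tested genes with a window. CCAAT, again on either strand, was found in 25 (75.8%) against 43.0%, and at least 2 CCAAT boxes in 17 (51.5%) against 16.3%. Both elements together were found in 23 promoters of the group (69.7%) and in 7.99% of all promoters. Letters of E2F sites (TTCGCGC or its variant TTGGCGC, and also the form TTCCCGC, on either strand) occurred in 5 of the 33 (15.2%) against 16.8%. TTGGCGC on the other strand can share bases with CCAAT, as it did in Ccnb1. A G4 pattern (4 runs of at least 3 G with loops of 1 to 7 bases, either strand) occurred in 9 (27.3%) against 31.9%. The shares of CHR and CCAAT were thus far above those of all promoters, and those of E2F letters and of G4 patterns lay slightly below them. The median log2 fold change with PhenDC3 was 0.14 for the 9 genes with a G4 pattern and -0.02 for the 24 without one. With CHR letters the median was 0.02 (26 genes), and without them 0.04 (7 genes). In the RNA-seq test given below, none of the 9 genes with a G4 pattern passed. The 2 rises and 2 falls were all among the 24 without one. These medians were not computed over all genes, and no difference between them was tested. A match to letters is not evidence of binding, and the absence of one covers these letters and this window alone.

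The RNA-seq comparison asks how these genes responded to PhenDC3. Of the 40 genes, 4 changed with PhenDC3 at an adjusted p of at most 0.05 (10% of them), while 36.8% of all tested genes did. The background by direction was 18% higher and 18.7% lower. Cenpf and Cenpe, which encode large proteins of the outer kinetochore, rose, while Cdc20 and Cdca8 (Borealin, a subunit of the chromosomal passenger complex) fell. Among the 6702 tested genes with a mean control level at or above that of the lowest of the 40, 37.2% changed. The log2 fold changes of the 40 genes ran from -0.47 to 0.58 with a median of 0.02, and 23 were above and 17 below 0. Their median absolute log2 fold change was 0.16, compared with 0.37 over all tested genes and 0.29 over the 6702. An unadjusted p of at most 0.05 was reached by 11 of the 40. In RNA from whole cultures, fewer cells in G2 and M and less of a transcript per cell cannot be told apart.

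**Figure D1:**
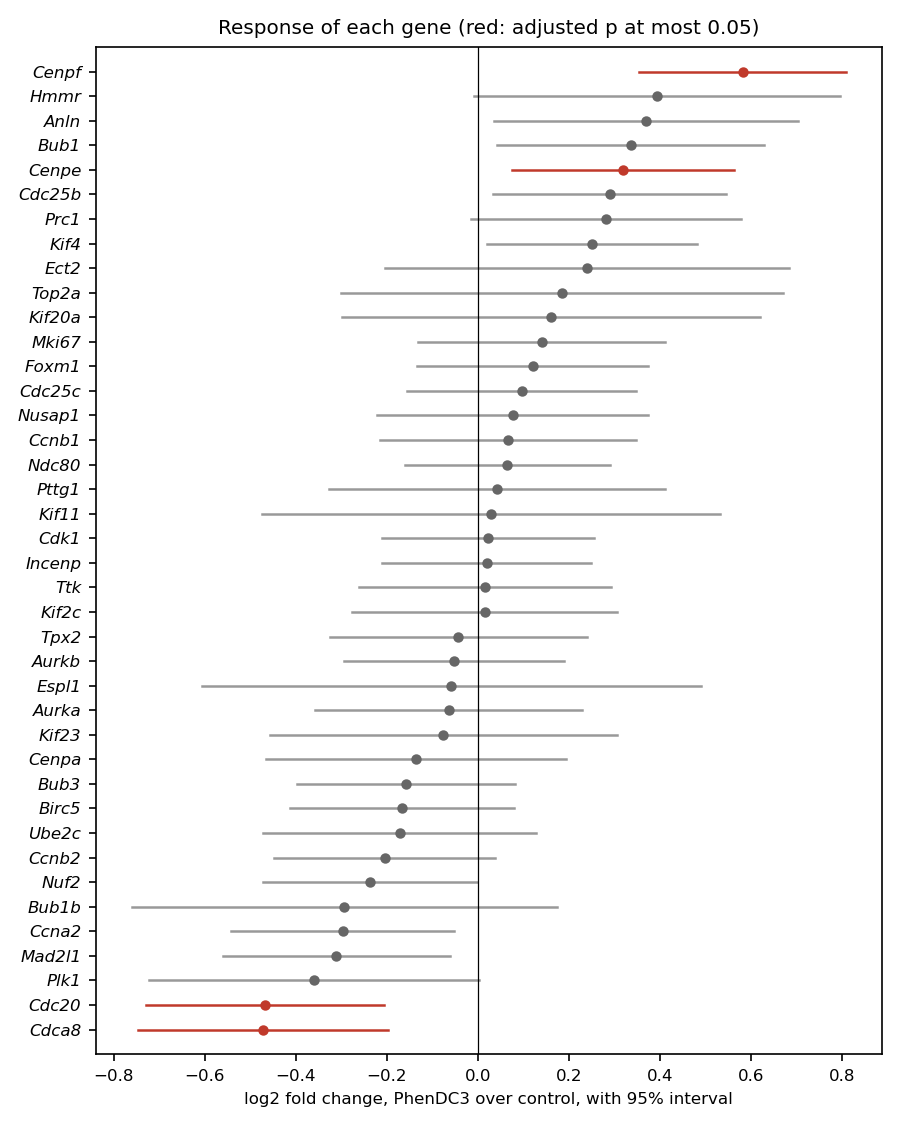
Log2 fold change of each of the 40 genes, PhenDC3 over control (x axis), with its 95% interval as a line and genes ordered by value. The 4 genes past the threshold (adjusted p of 0.05) are red, from Cdca8 at -0.47 to Cenpf at 0.58, and most intervals cross 0.

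In 13 of the 40 genes, the 3 PhenDC3 libraries did not overlap the 3 controls, against 50.6% of all tested genes. They lay above all controls in 6 genes (Cdc25b, Bub1, Cenpe, Cenpf, Kif4 and Prc1), with 25% over all genes. They lay below all controls in 7 genes (Ccna2, Ccnb2, Plk1, Cdca8, Mad2l1, Cdc20 and Nuf2), with 25.6% over all genes. The groups overlapped in the other 27. Both counts were below their background.

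The numbers of genes depended on single libraries, on the scaling and on whether the fit allowed for the replicate number. Of the 40 genes, 9 passed the test without control replicate 3, where 2689 of all genes rose and 2727 fell. Cenpf and Cdc20 alone passed it without PhenDC3 replicate 1, and Cenpf alone without PhenDC3 replicate 3. Scaling by total counts alone moved the median log2 fold change of all genes from 0.01 to 0.16 and that of the 40 genes to 0.17. Under it, 3583 of the 13972 tested genes rose and 1688 fell, so 68.0% of all calls were higher with PhenDC3, in place of 49.0%. Of the 40 genes, 8 then rose and 0 fell. With total counts 2 genes were lower at an unadjusted p of at most 0.05 with edgeR, which called 2 falls under RLE and 4 under TMM. DESeq2 also called 4. With the replicate number added to the fit as a block, 16 of the 40 genes passed the test, of which 9 rose and 7 fell. Over all 13972 tested genes, 3797 then rose and 3692 fell. The block added Anln, Bub1, Cdc25b, Ect2, Hmmr, Kif4 and Prc1 to the rises, and Bub1b, Ccna2, Mad2l1, Nuf2 and Plk1 to the falls. The labels do not say what a shared replicate number marks.

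**Figure D2:**
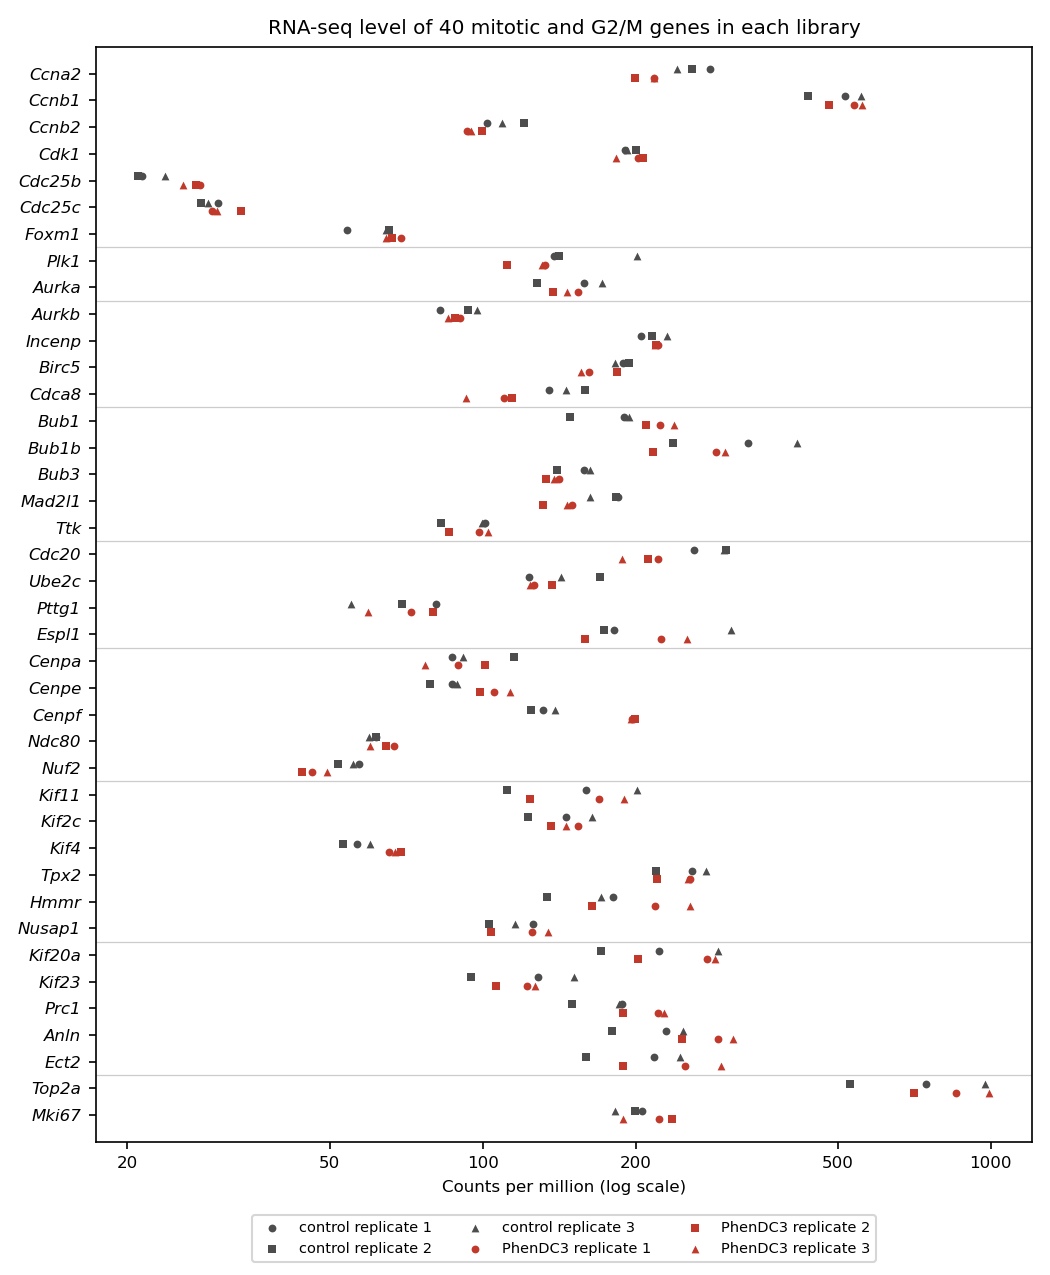
Level of each of the 40 genes in the 6 RNA-seq libraries, in CPM on a log axis (grey, control; red, PhenDC3; the symbol gives the replicate number), with lines between groups of genes of one role. In 13 genes the red points lie wholly to one side of the grey ones, for example Cenpf on the right and Cdc20 and Cdca8 on the left.

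Of the kinetochore and centromere genes, 2 of 5 rose and 0 fell under RLE with edgeR and with DESeq2, although Nuf2 was lower at an unadjusted p of 0.0489 (edgeR). TMM gave 1 rise, that of Cenpf. Cenpf encodes a large coiled-coil protein that binds microtubules and recruits dynein to kinetochores, and the gene lies at chr1:189640606-189688107 on the minus strand (GRCm38.p6, RefSeq). Its level was 132, 125 and 139 CPM in control replicates 1 to 3 and 196, 199 and 196 CPM in PhenDC3 replicates 1 to 3. All PhenDC3 libraries lay above all controls, and the PhenDC3 libraries were nearly equal. The mean rose from 132 ± 7.02 to 197 ± 1.77 CPM (SD, n = 3 each), which is 49.7% (log2 fold change 0.58, SE 0.10, 95% interval 0.35 to 0.81, adjusted p = 0.0025). Cenpf was the only one of the 40 to pass the test whichever library was left out (adjusted p 0.00258 to 0.0176), and it rose under every scaling used.

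Cenpe encodes the kinesin that carries chromosomes to the metaphase plate (chr3:135212563-135273540, plus strand). It measured 87.0, 78.6 and 89.1 CPM in control and 105, 98.9 and 113 CPM in PhenDC3 libraries, again without overlap. The mean rose from 84.9 ± 5.51 to 106 ± 7.30 CPM (SD, n = 3 each; log2 fold change 0.32, SE 0.11, 95% interval 0.07 to 0.56, adjusted p = 0.0451). It was not called with TMM (adjusted p = 0.0543) or without the filter on low counts (adjusted p = 0.0671), but it was with DESeq2 (adjusted p = 0.0438) and with total counts (log2 fold change 0.47, adjusted p = 0.00591). Leaving out single libraries gave adjusted p-values of 0.0909 (control replicate 1), 0.126 (control replicate 2), 0.134 (PhenDC3 replicate 1), 0.0608 (PhenDC3 replicate 2) and 0.156 (PhenDC3 replicate 3), and only without control replicate 3 was Cenpe still called (0.0401).

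The other genes of the kinetochore and centromere did not pass the test. Cenpa, the centromeric histone H3 variant, had the highest length-scaled control level of these genes (62.0 RPKM). Its level was 87.2, 115 and 91.5 CPM in control and 89.4, 101 and 77.1 CPM in PhenDC3 libraries, which overlap (log2 fold change -0.14, 95% interval -0.47 to 0.19). Ndc80 and Nuf2 are partners in the NDC80 complex, the microtubule-binding core of the kinetochore. Ndc80 measured 59.8 to 61.7 CPM in control and 60.1 to 66.9 CPM in PhenDC3 cells. Nuf2 lay lower in all PhenDC3 libraries (44.1 to 49.3 CPM) than in all controls (51.9 to 57.0 CPM), with an adjusted p of 0.105. Its adjusted p was 0.0437 with the replicate number as a block.

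Among the 4 genes of anaphase onset, Cdc20 fell (chr4:118432901-118437343, minus strand). It measured 261, 301 and 298 CPM in control and 222, 212 and 188 CPM in PhenDC3 libraries. Every PhenDC3 library was below every control. The mean went from 287 ± 22.4 to 207 ± 17.2 CPM (SD, n = 3 each), and the log2 fold change was -0.47 (SE 0.12, 95% interval -0.73 to -0.21, adjusted p = 0.0130). Without PhenDC3 replicate 3, the lowest library, the log2 fold change was -0.40 and the adjusted p 0.0562. Under scaling by total counts it was -0.32 with an adjusted p of 0.0670.

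Cdc20 also had the highest control level of this role (161 RPKM), close to that of Ube2c (156 RPKM), the E2 enzyme that works with the APC/C. Ube2c measured 123.5, 169.9 and 143 CPM in control and 126, 137 and 124 CPM in PhenDC3 libraries, with overlap (log2 fold change -0.17, adjusted p = 0.338). Pttg1 (securin) ranged from 55.2 to 80.9 CPM in control and from 59.5 to 79.8 CPM in PhenDC3 libraries. Espl1 (separase), the protease that securin restrains, ranged from 173 to 308 CPM and from 159 to 252 CPM. Neither gene passed the test (adjusted p = 0.865 and 0.869), and for Espl1 the 95% interval of the log2 fold change, -0.61 to 0.49, was wide.

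In the chromosomal passenger complex, which corrects faulty attachments of kinetochores, 1 of 4 genes fell. This gene, Cdca8 (chr4:124918465-124936917, minus strand), measured 135, 159 and 146 CPM in control and 110.3, 114 and 92.7 CPM in PhenDC3 libraries. The groups did not overlap, and PhenDC3 replicate 3 was lowest, as for Cdc20. The mean went from 147 ± 11.8 to 106 ± 11.5 CPM (SD, n = 3 each), with a log2 fold change of -0.47 (SE 0.12, 95% interval -0.75 to -0.20, adjusted p = 0.0154). The adjusted p was 0.0513 without PhenDC3 replicate 1 and 0.0627 without PhenDC3 replicate 3. Under scaling by total counts the log2 fold change was -0.32 (adjusted p = 0.0823). Cdca8 had the highest control level of the complex (90.2 RPKM). The other 3 subunits did not pass the test. Aurkb, the kinase of the complex, ranged from 82.4 to 97.6 CPM in control and from 85.4 to 90.1 CPM in PhenDC3 libraries. The scaffold Incenp ranged from 205 to 231 CPM and from 219 to 222 CPM. Birc5 (survivin), which docks the complex on centromeres, ranged from 182 to 194 CPM and from 156 to 184 CPM, with a log2 fold change of -0.17 (adjusted p = 0.256).

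None of the 7 genes of the CDK1 switch passed the test, with edgeR under RLE (2 had an unadjusted p of at most 0.05), and 1, Ccna2, fell under TMM and with DESeq2. Total counts gave 1 rise (Cdc25b) and 0 falls, with 0 genes lower at an unadjusted p of at most 0.05. Ccna2 fell and Cdc25b rose with the replicate number as a block. Ccnb1 (cyclin B1) had the highest length-scaled control level of all 40 genes (217 RPKM). It measured 516, 438 and 554 CPM in control and 539, 480.4 and 559 CPM in PhenDC3 libraries. The groups overlapped (log2 fold change 0.07, 95% interval -0.22 to 0.35, adjusted p = 0.708). Cdk1 itself, the kinase, measured 191, 200.2 and 192 CPM in control and 202, 207 and 183 CPM in PhenDC3 libraries (95% interval of the log2 fold change -0.21 to 0.26). A fall as large as that of Cdca8 lay outside both intervals.

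Ccna2 (cyclin A2, which acts in S phase and G2) was the closest of these to the threshold. Its libraries read 279.7, 258 and 241 CPM in control and 217, 199 and 218 CPM with PhenDC3, without overlap (log2 fold change -0.30, adjusted p = 0.0591, or 0.0315 without control replicate 3). Ccnb2 (cyclin B2) was also lower in every PhenDC3 library, 93.0 to 99.8 against 102 to 121 CPM, with an adjusted p of 0.163. Cdc25b and Cdc25c remove the inhibitory phosphates from CDK1. Cdc25b had the lowest length-scaled level of the 40 in control. It was higher in every PhenDC3 library, 25.7 to 27.8 against 21.0 to 23.7 CPM (log2 fold change 0.29, adjusted p = 0.0741, or 0.0476 without control replicate 3), while Cdc25c overlapped, 29.4 to 33.5 against 27.9 to 30.2 CPM. Foxm1, the transcription factor that drives many of these genes, measured 64.6 to 69.0 CPM with PhenDC3 and 54.1 to 65.4 CPM in control (log2 fold change 0.12, adjusted p = 0.429).

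The mitotic kinases Plk1 and Aurka drive centrosome maturation and spindle assembly. Aurka had the higher control level (77.3 RPKM) and measured 158, 128 and 172 CPM in control and 154, 137 and 146 CPM in PhenDC3 libraries (log2 fold change -0.06, 95% interval -0.36 to 0.23, adjusted p = 0.724). Plk1 measured 138, 142 and 201 CPM in control and 133, 111 and 131 CPM in PhenDC3 libraries. Plk1 was thus lower in every PhenDC3 library, but control replicate 3 stood well above the other controls and the adjusted p was 0.108. With the replicate number as a block, the adjusted p of Plk1 was 0.0115.

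None of the 5 spindle checkpoint genes passed the test under RLE with edgeR (2 had an unadjusted p of at most 0.05), and 1, Mad2l1, fell under TMM and with DESeq2. With total counts there was 1 rise (Bub1) and 0 falls, and 0 genes were lower at an unadjusted p of at most 0.05. Bub1 rose, and Bub1b and Mad2l1 fell, with the replicate number as a block. Mad2l1 (MAD2), which captures CDC20 in the checkpoint complex, was lower in every PhenDC3 library. It measured 185, 183 and 163 CPM in control and 149.8, 132 and 146 CPM with PhenDC3 (log2 fold change -0.31, adjusted p = 0.0528, or 0.0255 without control replicate 3). Bub1, a kinase that builds the checkpoint at kinetochores, was higher in every PhenDC3 library. It measured 189.6, 149 and 194 CPM in control and 223, 209.6 and 239 CPM with PhenDC3 (log2 fold change 0.34, adjusted p = 0.0718, or 0.0455 without control replicate 3). Bub1b (BUBR1), the other checkpoint partner of CDC20, had the highest control level here (89.6 RPKM). It measured 333, 237 and 416 CPM in control and 288, 216 and 299.96 CPM with PhenDC3, with wide spread and overlap (log2 fold change -0.29, 95% interval -0.76 to 0.17, adjusted p = 0.294). Bub3, which brings BUB1 and BUBR1 to kinetochores, ranged from 139.9 to 162 CPM in control and from 133 to 141 CPM with PhenDC3. Ttk (MPS1), the kinase that starts the checkpoint signal, ranged from 83.0 to 101 CPM and from 85.9 to 102 CPM.

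Of the 6 genes of the spindle and its kinesins, none passed the test under RLE with edgeR (1 had an unadjusted p of at most 0.05), nor did any with DESeq2, while 2, Hmmr and Kif4, rose under scaling by total counts. Hmmr and Kif4 also rose with the replicate number as a block. Tpx2, an activator of Aurora A on spindle microtubules, had the highest control level (57.5 RPKM). It measured 258, 219 and 276 CPM in control and 257, 221 and 254 CPM with PhenDC3 (log2 fold change -0.04, 95% interval -0.33 to 0.24, adjusted p = 0.811). Kif4, a chromosome-bound kinesin, was higher in every PhenDC3 library, 65.4 to 69.3 against 53.0 to 60.1 CPM (log2 fold change 0.25, adjusted p = 0.0835). Hmmr, a spindle assembly factor, had a log2 fold change of 0.39 with an adjusted p of 0.112 (0.0331 without PhenDC3 replicate 2), and its ranges of 134 to 181 CPM in control and 164 to 256 CPM with PhenDC3 overlapped. Kif11, the motor that separates spindle poles, ranged from 112 to 202 CPM in control and from 124 to 189.8 CPM with PhenDC3. Kif2c, a microtubule depolymerase, ranged from 123 to 164 CPM and from 136 to 154 CPM. Nusap1, which bundles spindle microtubules, ranged from 103 to 126 CPM and from 104 to 134 CPM.

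The 5 genes of the central spindle and cytokinesis had a median log2 fold change of 0.24, and none passed the test under RLE with edgeR (1 had an unadjusted p of at most 0.05) or with DESeq2, while 2, Anln and Prc1, rose under scaling by total counts. Anln, Prc1 and Ect2 rose with the replicate number as a block. Kif20a, the kinesin that carries passenger proteins to the midzone, had the highest control level (58.4 RPKM). It measured 222, 171 and 291 CPM in control and 276, 202 and 287 CPM with PhenDC3 (log2 fold change 0.16, 95% interval -0.30 to 0.62, adjusted p = 0.566). Anln (anillin), a scaffold of the contractile ring, measured 179.7 to 248 CPM in control and 247 to 311 CPM with PhenDC3 (log2 fold change 0.37, adjusted p = 0.0794, or 0.0393 without control replicate 3). Prc1, which bundles midzone microtubules, was higher in every PhenDC3 library, 189 to 228 against 150.2 to 188.5 CPM (adjusted p = 0.123). Ect2, the exchange factor that activates RhoA at the cell equator, ranged from 159.8 to 245 CPM in control and from 189 to 295 CPM with PhenDC3. Kif23, a subunit of centralspindlin, ranged from 94.8 to 152 CPM and from 106 to 127 CPM, and was the only one of the 5 with a negative log2 fold change (-0.08).

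Top2a, the topoisomerase that untangles sister chromatids, had 144 RPKM in control, below only Ccnb1, Cdc20 and Ube2c among the 40 genes. It measured 745, 528 and 974 CPM in control and 853, 708 and 994 CPM with PhenDC3, with overlap (log2 fold change 0.18, 95% interval -0.30 to 0.67, adjusted p = 0.530). Mki67 (Ki-67), the proliferation marker that coats mitotic chromosomes, measured 206, 199 and 182 CPM in control and 222, 236 and 189 CPM with PhenDC3 (log2 fold change 0.14, adjusted p = 0.390).

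The level of many of these genes also differed between replicates in the same order in both conditions. The main fit above, without the block, makes no allowance for the replicate number. In 20 of the 40 genes (50%), replicate 2 was the lowest library of both conditions, while this held for 23.2% of all tested genes. Replicate 1 was the lowest in both conditions for 1 gene and replicate 3 for 4 genes. The summed level of the 40 genes was 7004, 6226 and 7782 CPM in control and 7324, 6536 and 7527 CPM in PhenDC3 replicates 1 to 3. Replicate 2 had the lowest sum and replicate 3 the highest in both conditions. In Top2a, the difference between control replicates 2 and 3 (528 and 974 CPM) was larger than that between the means of the conditions (749 ± 223 and 852 ± 143 CPM, SD, n = 3 each). Kif11, Espl1, Bub1b, Kif20a and Ect2 followed the same order in both conditions, with replicate 2 lowest and replicate 3 highest. Cenpf, Cdc20 and Cdca8 did not, while Cenpe, the other gene that passed the test, did. The median exon length was 3787 bp for the 20 genes lowest in replicate 2 of both conditions and 2207.5 bp for the other 20. The part of transcript length, and of whatever else the libraries of one number share, in this pattern was not tested. The median coefficient of variation of the 40 genes was 10.4% in control and 7.98% in PhenDC3 libraries, compared with 15.4% and 11.2% over all tested genes. Over the 6702 genes with a control CPM as high, it was 12.1% and 8.25%.

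**Figure D3:**
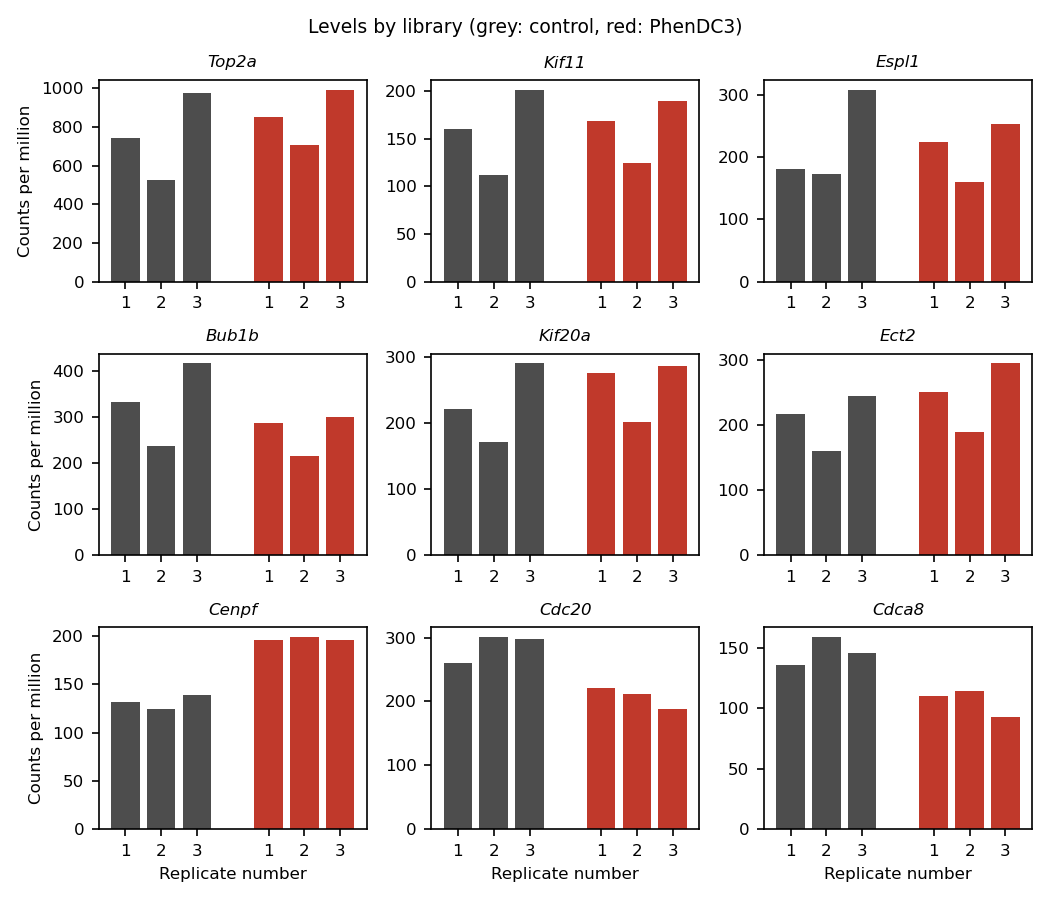
Level of 9 genes in each library, in CPM (y axis from 0; grey bars, control replicates 1 to 3; red bars, PhenDC3 replicates 1 to 3). The genes of the upper rows, such as Top2a (528 CPM in control replicate 2 and 974 CPM in control replicate 3), are lowest in replicate 2 of both conditions, while Cenpf, Cdc20 and Cdca8 in the lowest row separate by condition.

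Further genes of the same pathways were read from the same test, in which 36.8% of all tested genes changed. The share was 35.3% for APC/C genes, 0% for condensin and 33.3% for cohesin and its protectors. It was 25% for further kinetochore genes, 21.4% for further G2/M genes and 29.4% for factors of G2/M promoters. Among 17 APC/C subunits and coactivators, 2 rose and 4 fell, with a median log2 fold change of -0.09. Anapc10, which helps hold substrates, rose (1.06, adjusted p = 0.000828). The catalytic RING subunit Anapc11 (-0.64, adjusted p = 0.00198), the scaffold subunit Anapc5 (-0.52, adjusted p = 0.00548) and Anapc15 (-0.42, adjusted p = 0.0196), which helps release the checkpoint complex, fell. Under scaling by total counts the median was 0.06, with 4 rises and 2 falls, so the balance of this list depends on the scaling.

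Of 8 condensin subunits, 0 rose and 0 fell with edgeR under RLE (1 had an unadjusted p of at most 0.05), while 2 rose under scaling by total counts. Of 15 genes of cohesin and its protectors, 3 rose and 2 fell. Sgol2 (shugoshin 2), which protects centromeric cohesin, rose (0.60, adjusted p = 0.00561) and Cdca5 (sororin), which stabilises cohesin on sister chromatids, fell (-0.47, adjusted p = 0.0135). The alternative cohesin subunits Stag1 and Stag2 went in opposite directions, 0.46 (adjusted p = 0.0321) and -0.51 (adjusted p = 0.0232). The median of the list was 0.15.

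Of 32 further kinetochore genes tested, 2 rose and 6 fell, with a median log2 fold change of -0.07 (0.08 under scaling by total counts, with 8 rises and 1 fall). Hjurp, the chaperone that loads CENP-A, rose (1.05, adjusted p = 0.00223), as did Cenpt (0.68, adjusted p = 0.00284), which links centromeric chromatin to the outer kinetochore. Pmf1, a subunit of the MIS12 complex (-0.46, adjusted p = 0.00925), and Oip5 (MIS18-beta), which prepares centromeres for CENP-A (-0.63, adjusted p = 0.00955), fell. Of 42 further G2/M genes tested, 4 rose and 5 fell, with a median of 0.08. Kif18b, a microtubule depolymerase (0.94, adjusted p = 0.000547), and Ckap2, a spindle protein (0.65, adjusted p = 0.00205), rose. Depdc1b (-0.55, adjusted p = 0.00505) and Cks2, a CDK-binding subunit (-0.38, adjusted p = 0.0167), fell.

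Of 17 factors that act on G2/M promoters (MuvB, B-MYB, NF-Y and E2F families), 2 rose and 3 fell. E2f8, an atypical repressor E2F, fell most among the genes named from this list (-1.31, adjusted p = 0.00284). Tfdp1 (-0.53, adjusted p = 0.0102) and Tfdp2 (0.47, adjusted p = 0.0145), the alternative dimer partners of E2F proteins, went in opposite directions, and E2f4 fell (-0.46, adjusted p = 0.0227). Under scaling by total counts, rises and falls numbered 5 and 2 in this list, 6 and 0 for cohesin and its protectors (2 lower at an unadjusted p of at most 0.05), and 9 and 1 for the further G2/M genes.

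Genes that restrain the cell cycle and genes of G1 and S phase were read in the same way. Of 13 brakes on mitotic entry, 4 rose and 3 fell (53.8% changed, against 36.8% of all tested genes). Btg2, an antiproliferative p53 target, rose from 36.7 to 52.5 CPM in control to 147 to 171 CPM with PhenDC3 (log2 fold change 1.79, adjusted p = 9.4e-05). The CDK inhibitors Cdkn1a (p21) and Cdkn1b (p27) rose by 1.24 (adjusted p = 0.00017) and 1.31 (adjusted p = 0.000194), and the stress gene Gadd45b by 1.16 (adjusted p = 0.000613), on the log2 scale. None of the PhenDC3 libraries overlapped the controls in these 4 genes. The 3 falls were Gadd45a (-0.60, adjusted p = 0.0268), Cdkn1c (-0.92, adjusted p = 0.0273) and Rprm (-0.80, adjusted p = 0.0470). Rprm was near the floor, at a mean of 2.28 CPM in control. Wee1, Pkmyt1, Chek1 and Chek2 did not pass the test. The median of the list was -0.23, with 9 of 13 log2 fold changes below 0. Under scaling by total counts, 4 rises and 0 falls were called, with 3 genes lower at an unadjusted p of at most 0.05. Of 22 cyclins, kinases and replication genes of G1 and S phase, 1 rose and 10 fell, with a median of -0.30 (-0.15 under scaling by total counts, with 1 rise and 6 falls). Ccne1 (cyclin E1) fell from 267 to 272 CPM in control to 87.9 to 103 CPM with PhenDC3 (-1.52, adjusted p = 6.77e-05). E2f2 (-1.56, adjusted p = 0.000336) and Ccnd1 (cyclin D1; -1.46, adjusted p = 0.00107) fell too, and Rb1, the retinoblastoma protein that restrains E2F, rose (1.40, adjusted p = 0.00016). Of the G1 and S phase genes, 50% changed. The difference in the share of changed genes between these lists and the 40 genes was not tested.

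**Figure D4:**
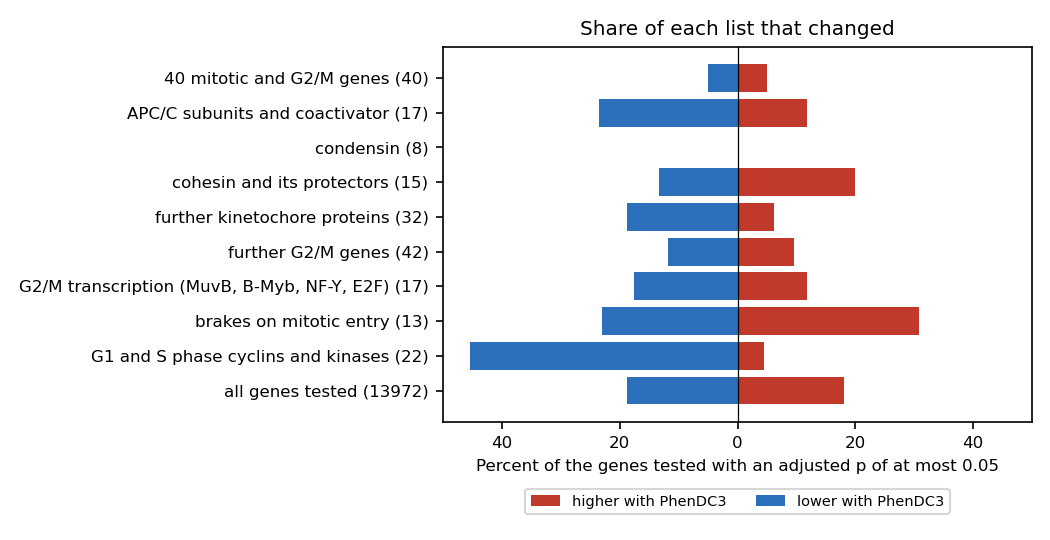
Percent of the tested genes of each list (number in brackets) that changed at an adjusted p of at most 0.05, higher with PhenDC3 to the right in red and lower to the left in blue. The 40 genes show 5% on each side and condensin 0%, while 10 of 22 G1 and S phase genes were lower, and all 13972 tested genes show 18% higher and 18.7% lower.

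The SNS-seq lists hold the positions where replication started. SNS-seq sequences short nascent strands, and the authors called peaks in each replicate against an RNase-treated library of the same condition. The fold enrichment of a peak is its ratio to that library. A peak that touched the 2 kb on either side of an annotated transcription start site (TSS) was assigned to the gene. Of the 40 genes, 14, 17 and 15 had such a peak in control replicates 1, 2 and 3 (35%, 42.5% and 37.5%). In PhenDC3 replicates 1 and 2, 24 and 15 did (60% and 37.5%). Of the 13949 tested genes with a TSS, the shares were 67.2%, 64.6% and 39.2% in control and 64.3% and 46.0% in PhenDC3 lists. The shares of the 40 genes were therefore below those of all genes in every list, by the least in control replicate 3 and PhenDC3 replicate 1. Genes with a control RPKM at or above the lowest of the 40 numbered 6648 with a TSS, a different set from that chosen by CPM above. They gave 70.0%, 66.8% and 39.9% in control and 65.4% and 45.1% in PhenDC3 lists. The lists differed in size, from 79384 to 144116 peaks, and without read counts in them the depth of the libraries is unknown.

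By presence of peaks, 16 of the 40 genes (40%) had a peak in at least 2 controls, against 62.2% of all genes. A peak in both PhenDC3 lists was found for 13 (32.5%), against 41.5%. A peak in all 5 lists was found for 5 genes (12.5% against 25.9%), namely Cdc25b, Foxm1, Bub3, Prc1 and Mki67. Presence in the window does not mean one shared position. The strongest summits of Foxm1 lay at 222, 381 and 1828 bp in control and at 622 and 634 bp in PhenDC3 lists. Those of Mki67 lay at 533, 520 and -794 bp and at 221 and -477 bp. No list held a peak for 9 genes (22.5% against 17.7%). The strongest of these peaks in control belonged to Bub3, with a fold enrichment of 10.7, 15.8 and 20.2 in control replicates 1 to 3 and 7.04 and 7.12 in PhenDC3 replicates 1 and 2. Aurka (3 controls) and Kif11 (2 controls) were without a peak in either PhenDC3 list, and 5% of the 40 genes against 8.27% of all genes had at least 2 control peaks and no PhenDC3 peak. Aurka had a fold enrichment of 4.17, 4.66 and 6.08 in the 3 controls, and Kif11 of 5.18 and 11.1 in control replicates 1 and 2. Without control replicate 2, 10 genes had a peak in the remaining controls (25% against 35.4% of all genes). Without PhenDC3 replicate 2, 24 genes had a peak in the remaining PhenDC3 list (60% against 64.3%), and 8 a peak in all remaining lists (20% against 29.6%). Without PhenDC3 replicate 1, 14 genes had no peak (35% against 22.2%), and 7 had at least 2 control peaks and none with PhenDC3 (17.5% against 22.2%). Without control replicate 1 or 2, that last number was 1.

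Bub1b, Espl1 and Cenpf had a peak in both PhenDC3 lists and in no control (7.5% against 2.03% of all genes). With PhenDC3 replicate 1 as the sole PhenDC3 list this number was 8 (20% against 6.57%), and with PhenDC3 replicate 2 alone it was 5 (12.5% against 2.51%). Cenpf, whose RNA rose, had a fold enrichment of 13.3 in PhenDC3 replicate 1, with the summit at -43 bp from the TSS, and of 5.74 in PhenDC3 replicate 2, at -746 bp. Espl1 gave 8.09 and 10.3, with summits at -1108 and -1101 bp. Bub1b gave 3.36 and 3.66, with summits at 201 and 189 bp. The summits nearly coincided between the lists for Espl1 and for Bub1b, but not for Cenpf. Of the other genes that changed, Cenpe had a peak in both PhenDC3 lists (4.22 and 8.94) and in control replicates 2 and 3 (7.42 and 5.31). Cdc20 had a peak in 2 controls (replicate 1 with 4.87 and replicate 3 with 5.32) and in PhenDC3 replicate 1 (7.52), and Cdca8 had one only in PhenDC3 replicate 2 (5.94). The 4 genes whose RNA changed thus shared no pattern of peaks. No difference between conditions was tested at single genes, since 3 lists against 2 cannot give an exact two-sided p below 0.2, and the fold enrichments of the conditions refer to different RNase-treated libraries.

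**Figure D5:**
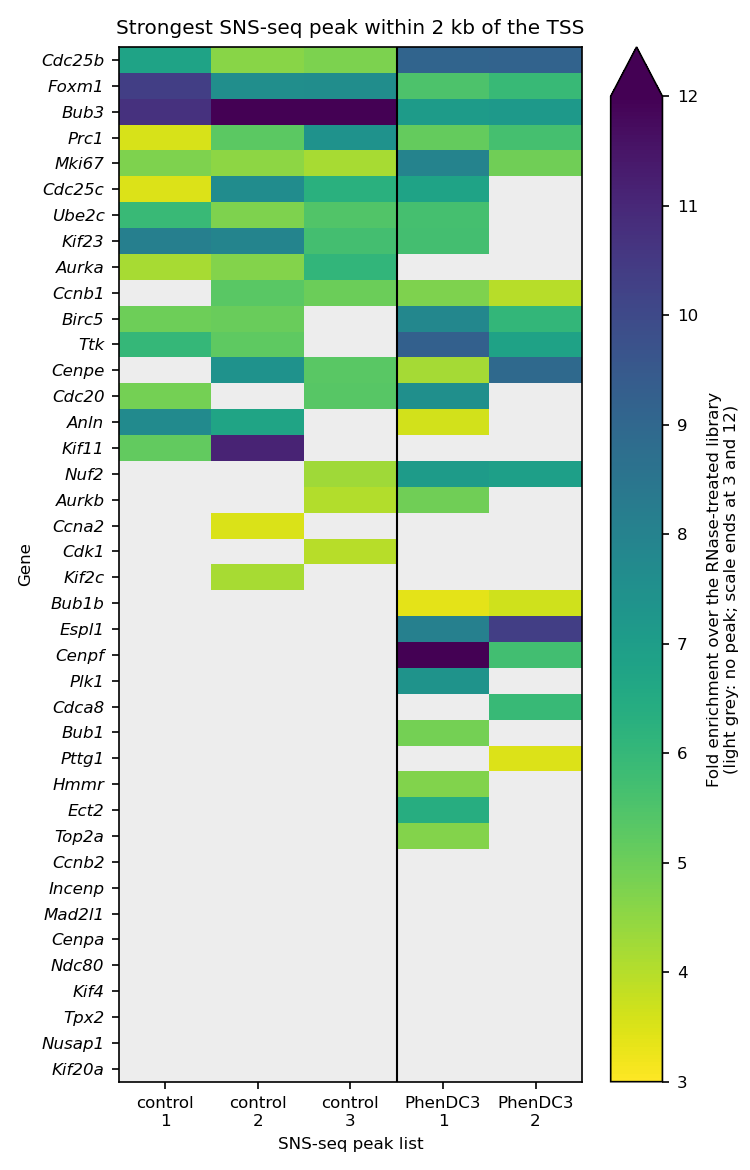
Fold enrichment of the strongest SNS-seq peak within 2 kb of the TSS of each gene (rows) in each peak list (columns; 3 control and 2 PhenDC3 replicates), with no peak in light grey and a colour scale that ends at 3 and 12. The 5 genes at the top have a peak in every list, and the 9 genes at the bottom have none. Bub1b, Espl1 and Cenpf have peaks in both PhenDC3 lists and in no control. Plk1, Cdca8, Bub1, Pttg1, Hmmr, Ect2 and Top2a also lack a control peak, but have a peak in a single PhenDC3 list.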

How the data were processed

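RNA-seq counts are those the authors deposited: reads mapped with TopHat2 (2.1.1) and Bowtie2 (2.2.9) and counted on genes with HTSeq-count (0.6.1p1), as raw counts. The submitters' processing notes list mm10, and the annotation and strand setting used for counting are not given in the sources used here. The deposited peak lists give a fold ratio over the RNase-treated library of the condition and −log10 p from the authors' MACS2 (2.1.0) calls per replicate. The deposited DESeq2 table (log2 fold changes and p-values) and the pseudo-count table were not used.

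Counts were tested with edgeR 4.0.16 (quasi-likelihood, robust, RLE, filterByExpr, two-sided, R 4.3.3), with Benjamini-Hochberg adjustment over 13972 genes at 0.05. Depth was 22232014 to 29486502 counts, and replicate number limits precision. Intervals are 95%. The pipeline was tested on simulated data with changes larger than any of the 40 genes and without a replicate pattern. That test does not show how well changes of their size are found. Full values are given for genes that passed and for the highest control RPKM of each role, and at most 4 genes per list by adjusted p. Further genes were named among the brakes on mitotic entry. The 40 genes and all lists were chosen with earlier results of these data known. Exon lengths, TSS and promoters are from RefSeq. Alternatives were TMM, no filter, DESeq2 1.42.0, a replicate block, each library left out, total counts (added after seeing the data), and for peaks a 1 kb window, the summit, and the stronger part of each list.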

Additional observations from a re-analysis of the deposited data

How the results depend on the processing

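Of the 40 genes, 2 rose and 2 fell under RLE with edgeR. TMM gave 1 and 4, omission of the filter on low counts gave 1 rise, DESeq2 gave 4 falls, and total counts gave 8 and 0. With each library left out, between 1 and 5 rose and between 0 and 4 fell. The count of all genes lower, 2617, was 1688 under total counts and 1623 to 2727 with libraries left out. The number of further pathway genes that changed was 51, and 25 to 54 with libraries left out. The cause of these shifts was not tested. With the stronger part of each peak list, 10 of the 40 genes had a peak in at least 2 controls in place of 16, and with lists left out 10 to 16 did. A peak in every PhenDC3 list was found for 13, and for 13 to 24 with lists left out, since fewer lists then had to hold one. Apart from the replicate block below, no other alternative moved these counts by more than 1.5 times.

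Leaving out libraries turned the sign of 14 of the 40 log2 fold changes, none of them called. Their ranges were -0.18 to 0.0218 (Aurka), -0.0296 to 0.14 (Ccnb1), -0.00908 to 0.073 (Cdk1), -0.21 to 0.25 (Espl1), -0.0254 to 0.0582 (Incenp), -0.17 to 0.24 (Kif11), -0.0137 to 0.37 (Kif20a), -0.25 to 0.0794 (Kif23), -0.0939 to 0.11 (Kif2c), -0.00435 to 0.18 (Nusap1), -0.0995 to 0.17 (Pttg1), -0.0187 to 0.41 (Top2a), -0.14 to 0.0264 (Tpx2) and -0.0751 to 0.0887 (Ttk).

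With the replicate number as a block, 9 of the 40 genes rose and 7 fell, all 4 genes called without it among them, and over all genes 3797 rose and 3692 fell, with 83 further pathway genes changed. Deviations from the group means correlated at 0.0904, 0.544 and 0.405 for libraries with the same number and at 0.0737 or less for the others, so every library correlated best with its own number. The labels do not say that a number marks a shared culture or day. The correlation of replicate 1 was low, so the block was kept as an alternative. Whether the design is paired was not settled. Small changes were limited by 3 libraries a group, and the peak lists hold no depth.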
